A study of Mus musculus with 8 samples.

Results

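The genes described here encode the receptors for glutamate, GABA and glycine. The family was chosen with earlier results of these data known. Its members were taken by symbol alone, as every gene of the expression table whose name marks it as a subunit of an ionotropic glutamate receptor (Gria, Grik, Grin, Grid), a metabotropic glutamate receptor (Grm), a GABA-A or GABA-B receptor (Gabr, Gabbr) or a glycine receptor (Glra, Glrb). This gave 52 of 24354 genes, and all 52 were matched to mouse RefSeq genes. RNA sequencing covered 8 libraries, 2 each of mouse embryonic stem cells (ESCs), neural stem cells (NSCs), extended pluripotent stem cells (EPSCs) and EPSC-NSC hybrid cells. The study compared the hybrid cells with both parental cell types and with ESCs, and the EPSCs with ESCs. Hybrid cells were not tested against ESCs here.

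The ESCs were wild-type cells of the E14 line, grown in serum and LIF on mouse embryonic fibroblasts as feeder cells. The NSCs were undifferentiated OG2/ROSA26 cells, which carry a lacZ transgene and a GFP transgene driven through the Oct4 distal enhancer. They grew on gelatin with EGF and FGF2. The EPSCs were wild-type cells derived from C57BL/6 embryos and sampled at passage 15. They were kept on inactivated feeder cells in LCDM medium, which contains LIF, a GSK3 inhibitor, dimethindene maleate and minocycline. The hybrid cells were made by PEG fusion of EPSCs with the OG2/ROSA26 NSCs, picked for Oct4-GFP, labelled tetraploid, and sampled at passage 10 in the EPSC medium on the same kind of feeder. Both libraries of a group came from a single line, so p-values measure only the spread between these libraries, which may be technical, and not between fusions or derivations.

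Glutamate opens cation channels of the AMPA, kainate and NMDA types and also acts through metabotropic receptors that couple to G proteins, whereas GABA and glycine open chloride channels. Most of these channels are assembled from different subunits, and several subunits, such as Grik4, Grik5, Grin1, Gabbr1 and Glrb, need a partner from their own family to form a working receptor. The genes are best known from neurons, but neural progenitors and glia also express some of them.

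Levels are given as FPKM, fragments per kilobase of transcript and per 1000000 fragments, so that they can be compared between genes. The depth, derived from the steps on which the FPKM lie, lay between 22.0 and 32.5 in units of 1000000 fragments per library, so that a 2 kb transcript with 3 fragments would have 0.0512 to 0.0757 FPKM. That floor covers counting error only. The summed markers of pluripotent cells and of neural stem cells followed the labels, whereas the neuronal sum did not separate the groups. The 7 markers of pluripotent cells summed to 4463 to 5282 FPKM in the ESC, EPSC and hybrid cell libraries and to 0.576 and 0.600 FPKM in NSCs, and the 8 markers of neural stem cells and radial glia summed to 3954 and 4009 FPKM in NSCs and to 10.8 to 19.3 FPKM elsewhere. The 9 neuronal markers summed to 154 to 220 FPKM in all libraries, led by Stmn2 outside NSCs and by Map2 in NSCs, while Dcx and Rbfox3 stayed at or below 0.236 FPKM. The 5 astrocyte markers summed to 377 and 345 FPKM in NSCs, mostly from Aldoc at 340 and 313, with Gfap at 29.2 and 24.8, and to 11.8 to 23.3 FPKM elsewhere, whereas Aldh1l1 of the same list was higher in ESCs, at 7.28 and 7.60, than in NSCs, at 3.05 and 2.22, and the 6 markers of the oligodendrocyte lineage to 11.9 and 11.4 FPKM in NSCs and to 3.01 to 4.19 FPKM elsewhere. Their part in the receptor levels of NSCs was not tested. The 8 fibroblast markers summed to 1.09 and 1.23 FPKM in NSCs, 11.0 and 12.2 in ESCs, 318 and 237 in hybrid cells, and 83.2 and 80.3 in EPSCs. Among these markers, Postn is a gene that the paper treats as EPSC-specific, so the sum may not measure feeder cells alone.

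The sequences just before the start sites of a few of these genes are shown because their neighbours or partners recur in the results. Gabrg1 and Gabra2 are adjacent genes with their highest level in NSCs, Gabbr1 was present in all groups, and Grin1 was highest in ESCs. Each line gives the 250 bases upstream of the RefSeq start site (assembly GRCm38.p6), 5′ to 3′ on the strand of the gene, with each CpG in capitals. The Gabrg1 window is chr5:70842618-70842867 on the minus strand, the Gabra2 window chr5:71095850-71096099 on the minus strand, the Gabbr1 window chr17:37045716-37045965 on the plus strand, and the Grin1 window chr2:25319188-25319437 on the minus strand.
Gabrg1: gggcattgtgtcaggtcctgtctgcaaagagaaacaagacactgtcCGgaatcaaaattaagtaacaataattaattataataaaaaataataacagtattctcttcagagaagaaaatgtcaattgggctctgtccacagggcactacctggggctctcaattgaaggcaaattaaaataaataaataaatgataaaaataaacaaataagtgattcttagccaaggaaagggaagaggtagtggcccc
Gabra2: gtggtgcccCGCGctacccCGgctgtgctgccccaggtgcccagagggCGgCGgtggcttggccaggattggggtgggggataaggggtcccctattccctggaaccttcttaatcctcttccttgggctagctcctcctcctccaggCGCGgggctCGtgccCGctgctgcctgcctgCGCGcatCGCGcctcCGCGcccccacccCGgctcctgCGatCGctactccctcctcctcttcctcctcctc
Gabbr1: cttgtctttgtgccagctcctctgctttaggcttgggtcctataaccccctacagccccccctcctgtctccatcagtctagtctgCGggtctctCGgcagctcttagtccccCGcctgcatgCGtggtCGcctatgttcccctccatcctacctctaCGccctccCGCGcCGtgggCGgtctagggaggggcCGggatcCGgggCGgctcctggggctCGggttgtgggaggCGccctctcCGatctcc
Grin1: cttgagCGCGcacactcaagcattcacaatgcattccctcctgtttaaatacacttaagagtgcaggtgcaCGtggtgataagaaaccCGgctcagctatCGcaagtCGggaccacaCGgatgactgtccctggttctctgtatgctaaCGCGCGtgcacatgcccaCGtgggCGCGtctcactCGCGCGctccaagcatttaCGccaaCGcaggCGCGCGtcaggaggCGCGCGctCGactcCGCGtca
The Gabrg1 window held 1 CpG, and 18.8% of all 32851 such windows in the mouse table held at most that number. Gabra2 had 18 CpGs and Gabbr1 had 16, a number reached by 25.4% of all windows. Grin1 had 27 CpGs, a number reached by 8.56%. The table covered 36 receptor genes with 43 start sites, at a median of 8 CpGs, against a median of 6 over all windows. The letters GGGCGG, searched on both strands, were found in 21 of the 43 windows of receptor genes (48.8%), those of Gabra2 and Gabbr1 among them, and in 32.7% of all windows. TATAAA, searched the same way, was found in 5 of the 43 (11.6%) and in 12.4% of all windows.

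Across the family, 18 of the 52 genes reached a mean of at least 1 FPKM in a group and were tested, 28 others had a value above 0 in some library, and 6, among them Gabra6, Gabrr3, Glra2, Glra3 and Glra4, were listed at 0 in all libraries. NSCs had 17 receptor genes at a mean of at least 1 FPKM (32.7% of the 52), ESCs had 5 (9.62%), and EPSCs and hybrid cells had 4 each (7.69%). Over all genes of the table this share was 45.9% to 46.8% in each group. Of the 18 tested genes, 14 had their highest mean in NSCs and 4 in ESCs (Gabbr1, Grik3, Grin1 and Grm4), while none was highest in EPSCs or hybrid cells. As 11 of the 14 were tested only through their NSC level, this count is a description. Among all 13239 genes tested, 39.7% were highest in NSCs, 20.8% in hybrid cells, 20.5% in ESCs and 19.0% in EPSCs. Summed over the 52 genes, the level was 195 and 201 FPKM in NSCs, 30.5 and 30.0 in hybrid cells, 32.1 and 34.0 in EPSCs, and 66.5 and 65.0 in ESCs.

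**Figure D1:**
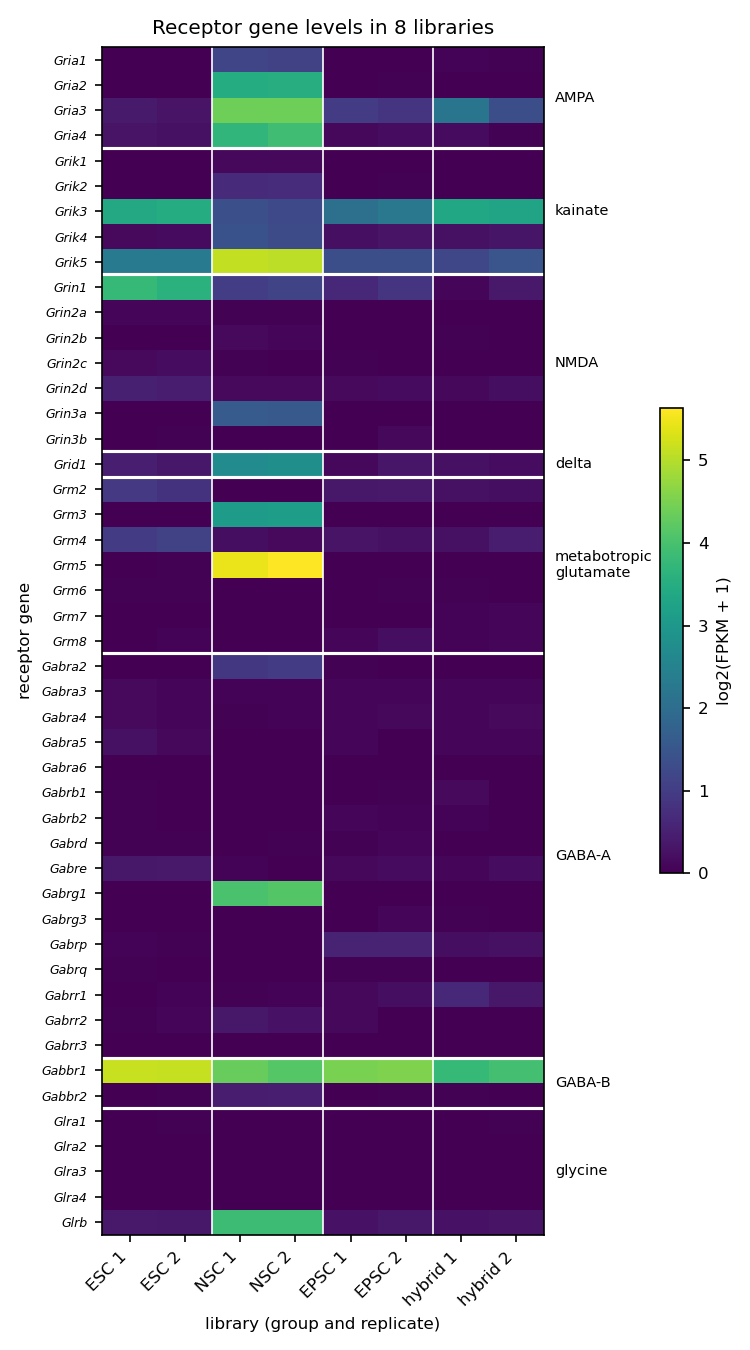
Heat map of log2(FPKM + 1) of 47 receptor genes (rows, by receptor class) in the 8 libraries (columns, by group and replicate), with brighter colours for higher levels. The NSC columns hold most of the bright cells, and Gabbr1 is bright in all 8 libraries.

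In hybrid cells against NSCs, 16 of the 18 tested receptor genes fell and 1 (Grik3) rose by limma on log2(FPKM + 1), and 14 of the falls and the rise were at least 2-fold on that scale. Over all tested genes, 86.5% were called in this comparison, 42.0% lower and 44.5% higher, and 23.9% were lower and 23.3% higher by at least 2-fold. The median log2 fold change was -2.06 over the 18 receptor genes and 0.06 over all tested genes. Of the 18 genes, 11 entered the test only through their NSC level, so these counts describe the genes and do not support a direction. Without the filter, all 46 receptor genes with a value above 0 entered the test, of which 23 were lower and 8 higher in hybrid cells, against 33.2% and 36.1% of all genes. EPSCs against NSCs, a comparison that shares the NSC libraries, gave 15 lower and 2 higher receptor genes, 13 of the lower and none of the higher by at least 2-fold, where 86.2% of all tested genes were called, 41.0% lower and 45.2% higher, and 23.9% and 23.0% by at least 2-fold. In bulk RNA, fewer cells that express a gene and less RNA per cell cannot be told apart. Log2 fold changes below, and calls of at least 2-fold, are on the log2(FPKM + 1) scale, which understates the change of low genes, whereas a fold named in words beside them, such as 6.06-fold, is a ratio of mean FPKM.

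The AMPA receptor genes, which encode the main channels of fast excitation, were all tested and all highest in NSCs. Gria3 was at 19.8 and 19.9 FPKM in NSC replicates 1 and 2, at 0.330 and 0.229 in ESCs, at 3.57 and 1.55 in hybrid cells, and at 0.974 and 0.815 in EPSCs. Gria4 stood at 12.0 and 14.1 FPKM in NSCs, 0.228 and 0.20 in ESCs, 0.116 and 0.0251 in hybrid cells, and 0.0848 and 0.143 in EPSCs. Gria2, whose product limits the calcium flux of the channel, had 10.3 and 10.4 FPKM in NSCs, and it was listed at 0 in both ESC libraries and stayed at 0.0264 or lower in EPSCs and hybrid cells. The level of Gria1 was 1.28 and 1.17 FPKM in NSCs, 0.0321 and 0.0255 in hybrid cells, and 0 in the ESC and EPSC libraries. In all 4 genes, both NSC libraries lay above every other library. Hybrid cells were lower than NSCs for Gria4 (log2 fold change -3.71, SE 0.09, limma adjusted p = 2.08e-08), Gria2 (-3.49, SE 0.06, adjusted p = 4.78e-09), Gria3 (-2.61, SE 0.24, adjusted p = 1.82e-05) and Gria1 (-1.11, SE 0.06, adjusted p = 7.82e-07). EPSCs were lower than NSCs as well, at -3.65 for Gria4, -3.47 for Gria2, -3.46 for Gria3 and -1.15 for Gria1 (limma adjusted p between 4.76e-09 and 3.47e-06). The summed AMPA receptor level was 44.4 ± 1.6 FPKM in NSCs (SD, n = 2) and 2.67 ± 1.5 FPKM in hybrid cells, of which Gria3 made up 96.0%.

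The kainate receptor genes divided into different patterns. Grik5, whose product has high affinity for glutamate and needs a partner of the Grik1 to Grik3 group, was at 33.7 and 32.6 FPKM in NSCs, 3.98 and 4.10 in ESCs, 1.28 and 1.81 in hybrid cells, and 1.55 and 1.54 in EPSCs. It made up 89.8% of the kainate receptor level of NSCs. In hybrid cells against NSCs it fell by 3.75 on the log2 scale (SE 0.11, limma adjusted p = 3.70e-08), a 21.5-fold ratio of means, and EPSCs were lower than NSCs by as much (log2 fold change -3.75, SE 0.11, adjusted p = 3.59e-08). Grik5 overlaps the coding gene Zfp574, whose mean level ran from 7.48 FPKM in NSCs to 14.1 FPKM in ESCs, and how the deposited values divide reads between overlapping genes is not given in the sources used here. Grik4, the other subunit that needs such a partner, stood at 1.68 and 1.49 FPKM in NSCs, 0.103 and 0.122 in ESCs, 0.190 and 0.241 in hybrid cells, and 0.179 and 0.238 in EPSCs. Hybrid cells were lower than NSCs for Grik4 as well (log2 fold change -1.09, SE 0.07, limma adjusted p = 2.39e-06), as were EPSCs (-1.10, SE 0.07, adjusted p = 2.31e-06). Of the partner subunits, Grik1 reached 0.0831 FPKM at most and Grik2 0.634 FPKM, both in an NSC library.

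Grik3, a kainate receptor subunit that can form channels by itself, was instead lowest in NSCs. Its level was 9.61 and 10.2 FPKM in ESCs, 9.20 and 8.73 in hybrid cells, 3.25 and 3.79 in EPSCs, and 1.59 and 1.37 in NSCs, and no libraries of neighbouring groups overlapped. Hybrid cells therefore lay above both of their parental cell types for this gene. They exceeded NSCs by 6.06-fold (log2 fold change 2.01, SE 0.09, limma adjusted p = 4.43e-07) and EPSCs by 2.54-fold (1.14, SE 0.09, adjusted p = 0.000251). EPSCs were 2.38-fold above NSCs (0.87, SE 0.09, adjusted p = 5.57e-05) and 2.82-fold below ESCs (-1.27, SE 0.09, adjusted p = 4.15e-05). These calls held under all 14 alternatives, although the log2 fold change of EPSCs against NSCs ranged from 0.52 to 1.20 and that of hybrid cells against NSCs from 1.72 to 2.52. Grik3 was the only receptor gene called higher in hybrid cells than in NSCs by this fit, and it supplied 83.5% of the kainate receptor level of hybrid cells and 70.5% of that of ESCs. The fibroblast marker sum moved with it between EPSCs, at 83.2 and 80.3 FPKM, and hybrid cells, at 318 and 237 FPKM, and it was 11.0 and 12.2 FPKM in ESCs. The part of these markers in the difference between hybrid cells and EPSCs was not tested.

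**Figure D2:**
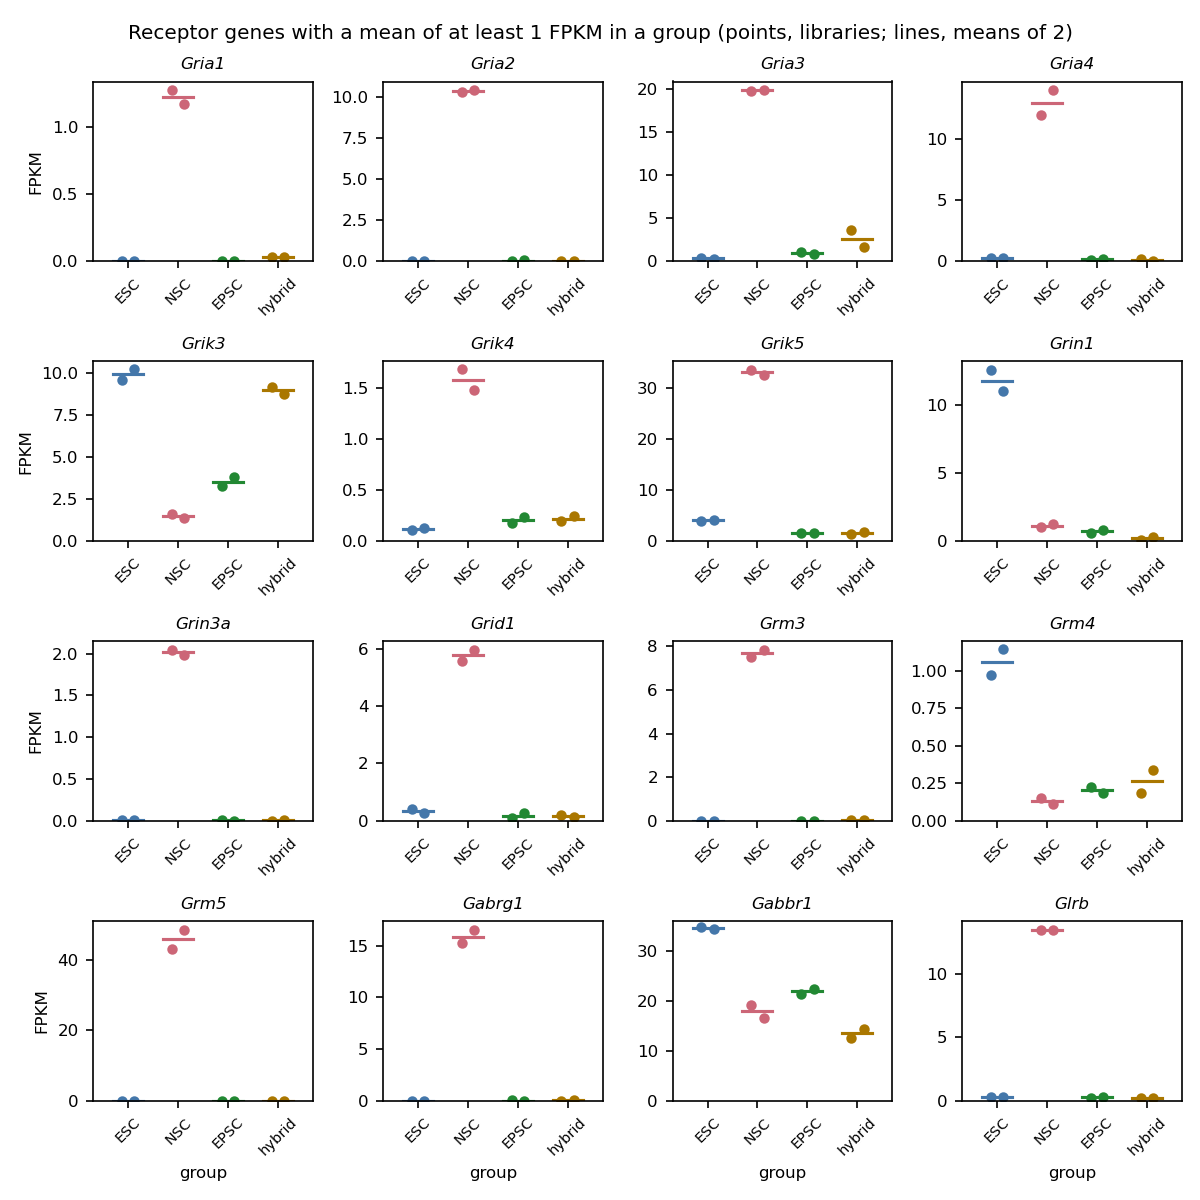
FPKM (vertical axes, each panel on its own scale from 0) of 16 tested receptor genes in each library (points) of the 4 groups, with the mean of 2 libraries as a line. In 12 panels the NSC points lie above all others, whereas Grik3, Grin1, Grm4 and Gabbr1 are highest in ESCs.

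Among the NMDA receptor genes, Grin1, which encodes the obligatory glycine-binding subunit, was an ESC gene in these libraries. It was at 12.6 and 11.0 FPKM in ESCs, 1.02 and 1.21 in NSCs, 0.573 and 0.813 in EPSCs, and 0.0707 and 0.310 in hybrid cells. The 4 groups did not overlap. EPSCs were 17.0-fold below ESCs (log2 fold change -2.92, SE 0.13, limma adjusted p = 4.86e-06), and this was the lowest fold change of any tested receptor gene in that comparison. Hybrid cells were lower than NSCs (-0.84, limma adjusted p = 0.000438) and lower than EPSCs (-0.51, adjusted p = 0.0161), although the second call was lost without EPSC replicate 2 (-0.41, adjusted p = 0.0769), without hybrid replicate 1 (-0.37, adjusted p = 0.0651) and with the compared groups fitted alone (-0.51, adjusted p = 0.0582). The smaller difference between EPSCs and NSCs (-0.33, limma adjusted p = 0.0444) was lost without either EPSC replicate 1 (-0.22, adjusted p = 0.209), NSC replicate 1 (-0.39, adjusted p = 0.0764), NSC replicate 2 (-0.26, adjusted p = 0.197), ESC replicate 1 (-0.33, adjusted p = 0.0548) or ESC replicate 2 (-0.33, adjusted p = 0.0550). It was also lost with a pseudocount of 0.1 (-0.63, limma adjusted p = 0.148), with no filter on low values (-0.33, adjusted p = 0.0756) and with quantile normalization (-0.28, adjusted p = 0.0537). The glutamate-binding partners of Grin1 were low throughout. In ESCs, Grin2d was at 0.405 and 0.370 FPKM, Grin2c at 0.0984 and 0.143, Grin2a at 0.0714 and 0.0546, and Grin2b at 0.00423 and 0.00924. Grin1 thus made up 95.2% of the NMDA receptor level of ESCs. Grin3a, a further glycine-binding subunit, showed the NSC pattern instead, with 2.04 and 1.99 FPKM in NSCs and at most 0.0118 in the other libraries, which corresponds to about 435 and 425 fragments against at most 2. It was lower in hybrid cells (log2 fold change -1.58, SE 0.06, limma adjusted p = 1.18e-07) and in EPSCs (-1.59, SE 0.06, adjusted p = 1.13e-07) than in NSCs. The coding gene Ppp3r2 lies within the Grin3a locus and had a mean of 0.10 FPKM in NSCs.

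Grid1, a delta receptor that binds cerebellins at the synapse, was an NSC gene. It was at 5.57 and 5.96 FPKM in NSCs, 0.390 and 0.281 in ESCs, 0.193 and 0.136 in hybrid cells, and 0.0840 and 0.269 in EPSCs. The NSC libraries lay above all others. Hybrid cells were lower than NSCs (log2 fold change -2.54, SE 0.10, limma adjusted p = 1.48e-07), and so were EPSCs (-2.53, SE 0.10, adjusted p = 1.48e-07).

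The metabotropic glutamate receptors held the receptor gene with the highest level in NSCs. Grm5, which couples to phospholipase C and calcium release, was at 43.2 and 48.6 FPKM in NSCs, and at most 0.0246 in any other library. In fragments, this was about 10089 and 11424 in the NSC libraries, 1 and 6 in ESCs, 2 and 1 in hybrid cells, and 0 and 2 in EPSCs. The levels outside NSCs are therefore close to what single fragments give. In hybrid cells against NSCs, Grm5 fell by 5.54 on the log2 scale (SE 0.08, limma adjusted p = 2.29e-09) and differed by as much between EPSCs and NSCs (-5.54, SE 0.08, adjusted p = 2.25e-09), the largest changes among the receptor genes. Grm3, which inhibits adenylyl cyclase, stood at 7.51 and 7.84 FPKM in NSCs, 0.0125 and 0.0132 in hybrid cells, and 0 in both ESC and both EPSC libraries. It was lower in hybrid cells (log2 fold change -3.10, SE 0.06, limma adjusted p = 7.92e-09) and in EPSCs (-3.12, SE 0.06, adjusted p = 7.42e-09) than in NSCs.

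Grm2, closest to Grm3 in its signalling, had the inverse distribution at a low level that was not tested. It was listed at 0 in both NSC libraries and stood at 0.905 and 0.762 FPKM in ESCs, 0.20 and 0.155 in hybrid cells, and 0.289 and 0.306 in EPSCs. Grm4, which also inhibits adenylyl cyclase, was at 0.975 and 1.14 FPKM in ESCs, 0.148 and 0.110 in NSCs, 0.226 and 0.184 in EPSCs, and 0.186 and 0.336 in hybrid cells. EPSCs were 5.17-fold below ESCs for Grm4 (log2 fold change -0.77, limma adjusted p = 0.000187). Grm4 did not pass the test against NSCs in hybrid cells (0.16, limma adjusted p = 0.103) or in EPSCs (0.09, adjusted p = 0.304), in the fit with a pseudocount of 1. In hybrid cells it passed as higher with a pseudocount of 0.1 (0.63, limma adjusted p = 0.0432) and without hybrid replicate 1 (0.24, adjusted p = 0.0300), whereas with quantile normalization it passed as lower in hybrid cells (-0.21, adjusted p = 0.0338) and in EPSCs (-0.22, adjusted p = 0.0243). The remaining receptors Grm6, Grm7 and Grm8 did not exceed 0.150 FPKM in any library. The summed metabotropic level was 53.8 ± 4.0 FPKM in NSCs (SD, n = 2), of which Grm5 made up 85.4%, against 0.584 ± 0.11 in hybrid cells, 0.631 ± 0.072 in EPSCs and 1.95 ± 0.057 in ESCs.

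The GABA-A receptor, a chloride channel built mostly of alpha, beta and gamma subunits, had 19 genes in the table, but only 2 were tested, Gabrg1 among them. Gabrg1, a gamma subunit, was at 15.2 and 16.5 FPKM in NSCs and at most 0.00986 elsewhere, or about 1990 and 2179 fragments against at most 1. It was lower in hybrid cells (log2 fold change -4.06, SE 0.07, limma adjusted p = 4.11e-09) and in EPSCs (-4.07, SE 0.07, adjusted p = 3.97e-09) than in NSCs.

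The GABA-A genes lie in clusters, and within the cluster that holds Gabrg1 the levels differed between neighbours. On chromosome 5 of mm10, Gabrg1 (70751047-70842617) is followed by Gabra2 (70958392-71095849), Gabra4 (71569734-71658308) and Gabrb1 (71657921-72149572). In NSCs these genes had means of 15.9, 0.946, 0.0266 and 0 FPKM in that order, of which the last 2 lie below the level of 3 fragments on a 2 kb transcript and cannot be ranked. Gabra2, the gene just under the limit of the test, was at 0.879 and 1.01 FPKM in NSCs and at 0.0207 or lower elsewhere. Among the other subunits, Gabra3, Gabra4 and Gabra5 did not exceed 0.186 FPKM and Gabrb2 did not exceed 0.0551 FPKM in any library.

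A few GABA-A genes were highest outside NSCs, though below the limit of the test. Gabrp, the pi subunit, was at 0.455 and 0.452 FPKM in EPSCs, 0.148 and 0.20 in hybrid cells, 0.0399 and 0.0218 in ESCs, and 0 in NSCs. Gabrr1, a rho subunit, stood at 0.0171 and 0.0339 FPKM in NSCs, 0.0149 and 0.0325 in ESCs, 0.0884 and 0.149 in EPSCs, and 0.549 and 0.279 for the hybrid cells, which corresponds to about 27 and 13 fragments in hybrid cells, 4 and 7 in EPSCs, and 1 to 2 in each other library. Hybrid cells were highest for Gabrr1, and hybrid replicate 1, with the higher value, also had the higher fibroblast marker sum, 318 against 237 FPKM. The part of feeder cells in this difference was not tested. Gabre, the epsilon subunit, had 0.296 and 0.297 FPKM in ESCs and at most 0.136 elsewhere, and Gabrr2 had 0.281 and 0.215 FPKM in NSCs and at most 0.0842 elsewhere.

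The GABA-B receptor is a G-protein-coupled dimer in which Gabbr1 binds GABA and Gabbr2 couples to the G protein and brings the complex to the surface. Gabbr1 was above 12 FPKM in every library, and no other receptor gene exceeded 4 FPKM in all of them. It was at 34.9 and 34.4 FPKM in ESCs, 21.5 and 22.5 in EPSCs, 19.2 and 16.7 in NSCs, and 12.7 and 14.4 in hybrid cells. No groups overlapped, and hybrid cells were lower than either parental cell type. Hybrid cells were 1.62-fold below EPSCs (log2 fold change -0.66, limma adjusted p = 0.00125) and 1.32-fold below NSCs (-0.38, adjusted p = 0.00379, or -0.99 with each library scaled to the same sum), and EPSCs were 1.58-fold below ESCs (-0.63, adjusted p = 0.000624). EPSCs were 1.23-fold above NSCs (0.28, limma adjusted p = 0.0157), but that direction turned to -0.31 under that scaling, which moved the median of all tested genes to -0.51 in hybrid cells and -0.48 in EPSCs against NSCs. The EPSC difference from NSCs was also lost without EPSC replicate 2 (0.25, adjusted p = 0.0700) or NSC replicate 2 (0.19, adjusted p = 0.109). Between EPSCs and hybrid cells the fibroblast marker sum moved as well, from a mean of 81.7 to 278 FPKM, and its part in the Gabbr1 difference was not tested. Gabbr1 alone supplied 66.6% of the summed receptor level of EPSCs, 52.7% of that of ESCs and 44.8% of that of hybrid cells. Its partner Gabbr2 was at 0.342 and 0.383 FPKM in NSCs and at 0.0229 or lower in every other library.

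Of the glycine receptor genes, Glrb alone was tested. Its product links the receptor to the scaffold protein gephyrin and needs an alpha subunit to bind glycine. Glrb was at 13.5 FPKM in both NSC libraries, 0.304 and 0.284 in ESCs, 0.206 and 0.221 in hybrid cells, and 0.211 and 0.277 in EPSCs. Hybrid cells were 63.0-fold below NSCs (log2 fold change -3.57, SE 0.07, limma adjusted p = 6.45e-09) and EPSCs 55.1-fold (-3.54, SE 0.07, adjusted p = 6.30e-09). No alpha subunit accompanied it. Glra1 reached 0.0305 FPKM in an ESC library and was listed at 0 in both NSC libraries, and Glra2, Glra3 and Glra4 were listed at 0 throughout.

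**Figure D3:**
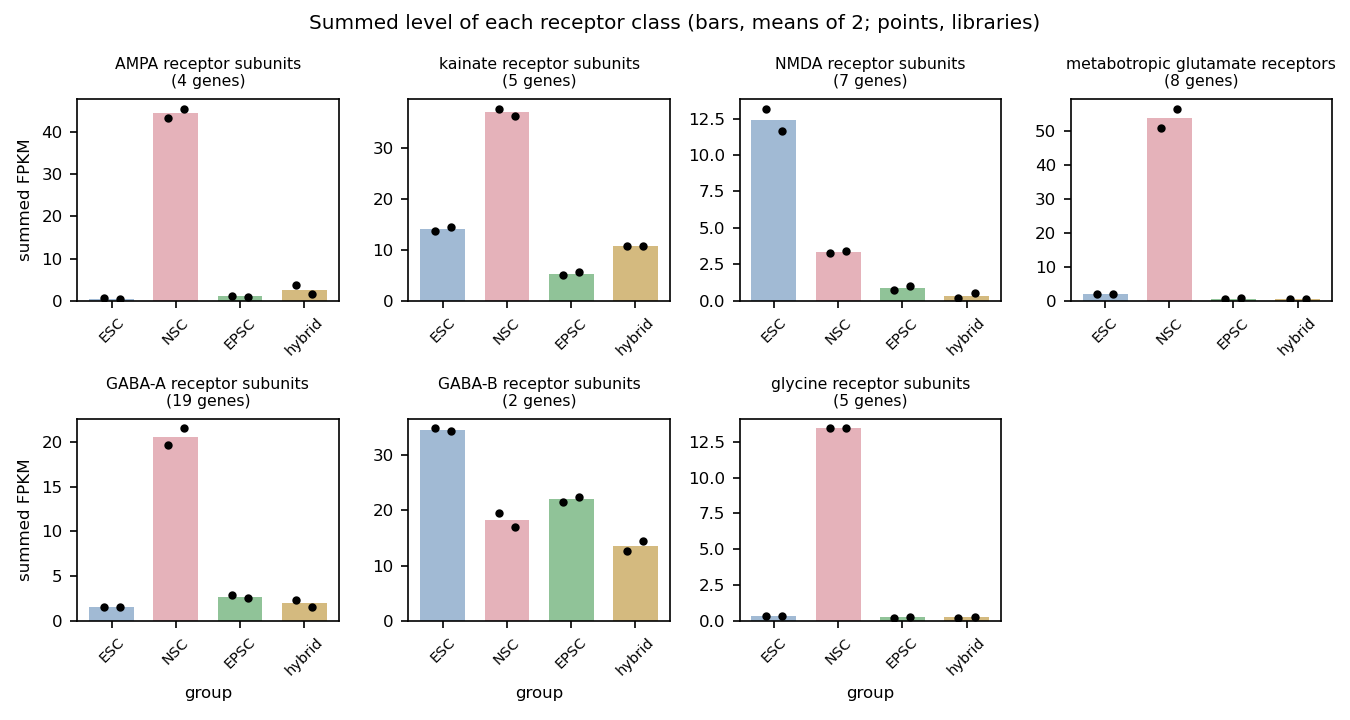
Summed FPKM (vertical axes, each panel from 0) of 7 receptor classes in each group, with bars for the mean of 2 libraries and points for the libraries. NSCs have the highest sum in 5 classes and ESCs in the NMDA and GABA-B classes, while the kainate sum of hybrid cells, 10.7 FPKM, lies between those of EPSCs, 5.29, and ESCs, 14.1.

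Hybrid cells and EPSCs differed in a minority of the receptor genes. Of the 18 tested genes, 2 rose (Grik3 and Gria3) and 3 fell (Gabbr1 and Grin1 among them) in hybrid cells against EPSCs, whereas 44.4% of all tested genes were called, 22.5% higher and 21.9% lower. Only Grik3 changed by at least 2-fold, where 2.21% of all tested genes were that much higher and 1.35% that much lower. The median log2 fold change was -0.0025 over the receptor genes and 0 over all tested genes. The 11 genes tested only through their NSC level, with means of at most 0.335 FPKM in any other group, enter that median and the one of EPSCs against ESCs, so neither shows that the groups were alike. The rise of Gria3, 2.86-fold by the means (log2 fold change 0.85, SE 0.24, limma adjusted p = 0.0230), rested on hybrid libraries that differed by 2.30-fold, 3.57 against 1.55 FPKM, the widest ratio between libraries of any receptor gene above 1 FPKM in both. It was lost without EPSC replicate 1 (0.91, adjusted p = 0.0610), EPSC replicate 2 (0.79, adjusted p = 0.0873), NSC replicate 1 (0.85, adjusted p = 0.0551) or NSC replicate 2 (0.85, adjusted p = 0.0552). It was also lost with hybrid cells and EPSCs fitted alone (0.85, limma adjusted p = 0.109) and with no filter on low values (0.85, adjusted p = 0.0532). Hybrid cells were 7.75-fold below NSCs for Gria3. The fibroblast markers moved with it, since all 8 had higher values in both hybrid cell libraries than in both EPSC libraries, with Col1a1, a collagen gene of fibroblasts, at 13.7 and 15.7 FPKM in EPSCs against 61.0 and 46.2 in hybrid cells, and all 8 were higher in hybrid replicate 1 than in replicate 2. Their part in the Gria3 difference, and in the other differences between these groups, was not tested.

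In EPSCs against ESCs, 1 receptor gene rose and 5 (Gabbr1, Grik3, Grik5, Grin1 and Grm4) fell, where 61.0% of all tested genes were called, 33.7% higher and 27.3% lower. By at least 2-fold, none rose and Grin1 and Grik3 fell, where 5.08% of all tested genes rose and 4.81% fell. Grik5 was 2.61-fold lower (log2 fold change -0.99, limma adjusted p = 0.000215), and its EPSC level was close to that of hybrid cells, at means of 1.55 and 1.54 FPKM. The median log2 fold change was -0.01 over the receptor genes and 0.04 over all tested genes. Gria3 was 3.20-fold higher in EPSCs by its means of 0.895 and 0.280 FPKM but did not pass the test (0.57, SE 0.24, limma adjusted p = 0.0710). It passed when EPSCs and ESCs were fitted alone (adjusted p = 0.00424), and without hybrid replicate 1 (adjusted p = 0.00114) or hybrid replicate 2 (adjusted p = 0.00116), which both enter the shared spread. It passed as well with a pseudocount of 0.1 (1.40, limma adjusted p = 0.00844), with the replicate block (0.57, adjusted p = 0.0414) and with each library scaled to the same sum (0.72, adjusted p = 0.0435). ESC and EPSC cultures differed in line and medium, which cannot be told apart here. The fibroblast marker sum differed as well, at means of 11.6 FPKM in ESCs and 81.7 in EPSCs, and its part was not tested.

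**Figure D4:**
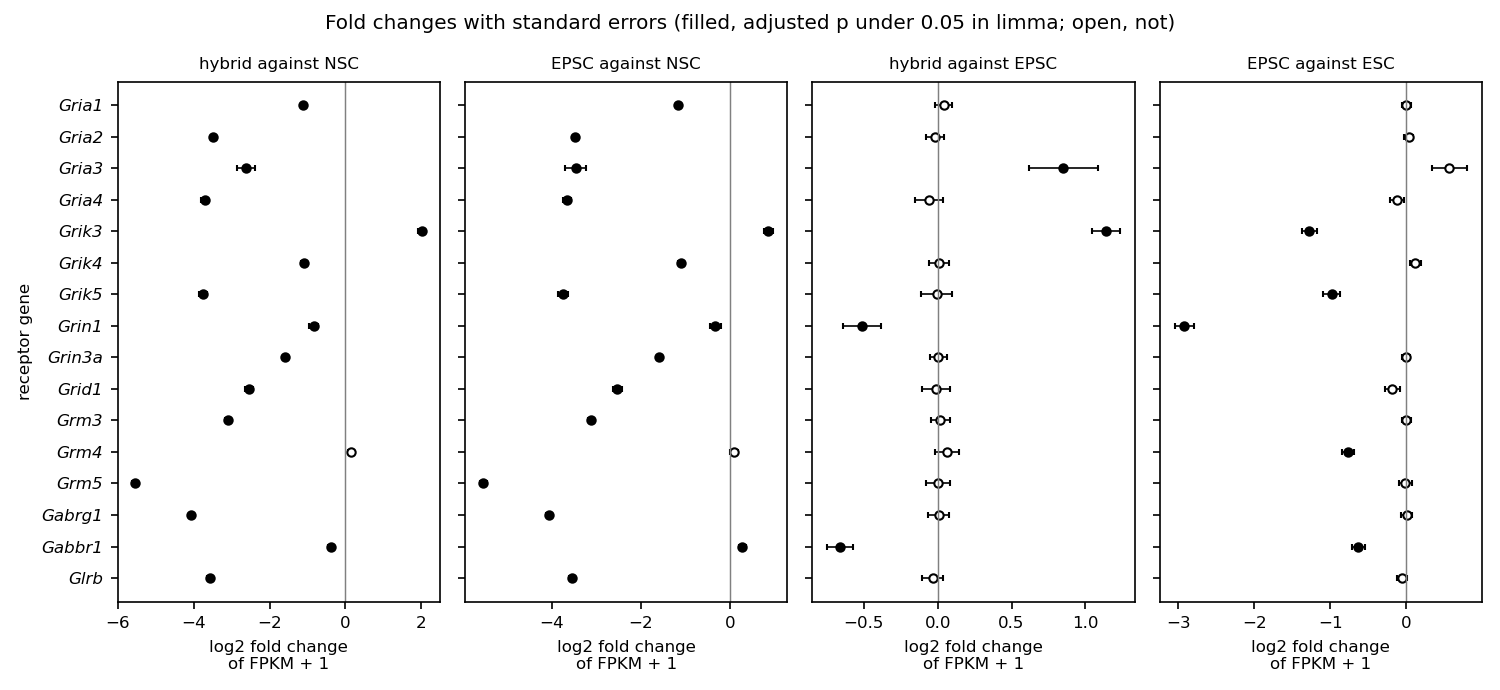
Log2 fold change of FPKM + 1 (horizontal axes, each panel on its own scale) with its standard error for 16 tested receptor genes in each comparison, filled where the limma adjusted p was under 0.05. Most genes lie left of 0 against NSCs, whereas against EPSCs only Grik3 in hybrid cells is beyond 1, and against ESCs only Grin1 and Grik3 are beyond -1.

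The rule of the study's methods, a mean over 3 FPKM and a fold change over 3, was also applied, with the mean taken here in the group with more. Against NSCs, it gave 10 lower genes and 1 higher gene (Grik3) in hybrid cells, of 12 receptor genes above 3 FPKM, and 9 lower genes in EPSCs. Of all genes above that level, 19.4% were lower and 15.2% higher in hybrid cells than in NSCs, and 19.7% were lower and 14.8% higher in EPSCs than in NSCs. It gave none between hybrid cells and EPSCs, of 2 receptor genes above 3 FPKM (1.43% and 0.755% of all genes were higher and lower). Between EPSCs and ESCs it gave 1, the lower Grin1, of 4 receptor genes above 3 FPKM (3.18% of all genes were lower and 3.17% higher).

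Genes that make or carry the transmitters were described from a list of 30, of which 21 were tested. In hybrid cells against NSCs, 13 fell and 5 rose, 10 and 2 of them by at least 2-fold, where 42.0% of all tested genes fell and 44.5% rose, 23.9% and 23.3% by at least 2-fold. Of the 21, 3 were tested only through their NSC level, as were 7 and 3 tested genes of the glutamate and the GABA and glycine accessory lists below, so the counts against NSCs describe these lists and support no direction. The largest falls were those of the transporters that clear GABA and glutamate. Slc6a11, a GABA transporter, was at 136 FPKM in both NSC libraries and 0 in both hybrid cell libraries (log2 fold change -7.10, SE 0.07, limma adjusted p = 6.79e-10). Slc1a3, the glutamate transporter of radial glia and astrocytes and also among the neural stem cell markers above, was at 404 and 431 FPKM in NSCs and 3.47 and 3.09 in hybrid cells (-6.61, SE 0.09, adjusted p = 1.72e-09). The rises were led by Gls2, which makes glutamate from glutamine, with means of 1.58 FPKM in NSCs and 10.8 in hybrid cells (2.19, SE 0.12, adjusted p = 9.60e-07), and by Shmt1, which interconverts serine and glycine, with 26.8 and 117 FPKM (2.09, SE 0.10, adjusted p = 4.93e-07). In EPSCs against NSCs 11 fell and 8 rose (41.0% and 45.2% of all tested genes), and in EPSCs against ESCs 8 fell and 7 rose (27.3% and 33.7% of all), none of the latter by 2-fold.

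Between hybrid cells and EPSCs, 8 of the 21 fell and 2 rose, beside 21.9% and 22.5% of all tested genes. Both falls of at least 2-fold, beside 1.35% of all, were transporters. Slc6a9, which takes up glycine, was at 38.5 and 35.1 FPKM in NSCs, 9.86 and 9.83 in ESCs, 0.704 and 1.12 in hybrid cells, and 5.62 and 5.15 in EPSCs. Hybrid cells therefore lay below every other group for it, with a log2 fold change of -1.75 against EPSCs (SE 0.11, limma adjusted p = 0.000119). Slc1a4, a carrier of neutral amino acids such as serine, was at 4.68 and 7.41 FPKM in hybrid cells and 16.9 and 14.3 in EPSCs (-1.26, SE 0.17, adjusted p = 0.00147). The fibroblast marker sum was higher in hybrid cells than in EPSCs, at means of 278 against 81.7 FPKM, and its part in these differences was not tested.

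Of 38 scaffold and auxiliary genes of glutamate receptors, 26 were tested, and all 26 differed between hybrid cells and NSCs, 20 lower and 6 higher, 15 and 3 of them by at least 2-fold. Of all tested genes, 86.5% differed, 42.0% lower and 44.5% higher, with 23.9% and 23.3% by at least 2-fold. Nptx1, a pentraxin that gathers AMPA receptors, was at 83.2 and 90.2 FPKM in NSCs and 0.204 and 0.268 in hybrid cells (log2 fold change -6.15, SE 0.09, limma adjusted p = 2.44e-09). Cacng5, an auxiliary subunit of AMPA receptors, was at 20.5 and 20.8 FPKM in NSCs and 0 and 0.0632 in hybrid cells (-4.39, SE 0.07, adjusted p = 2.99e-09). Neto2, an auxiliary subunit of kainate receptors, was at 35.3 and 41.2 FPKM in NSCs and 1.42 and 1.13 in hybrid cells (-4.11, SE 0.13, adjusted p = 5.37e-08). The pentraxin Nptx2 was lowest in NSCs, where its paralog Nptx1 was highest. It was at 29.6 and 27.8 FPKM in ESCs, 7.43 and 8.09 in EPSCs, 6.66 and 6.10 in hybrid cells, and 0 and 0.0148 in NSCs, and it led the 6 higher genes (2.87, SE 0.08, adjusted p = 3.91e-08). Against ESCs, EPSCs had 9 lower and 6 higher genes of this list (27.3% and 33.7% of all tested genes). By at least 2-fold, 3 were lower and 1 higher (4.81% and 5.08% of all). Cacng8, another AMPA receptor auxiliary subunit, was at means of 4.19 FPKM in ESCs and 0.493 in EPSCs (-1.80, SE 0.07, limma adjusted p = 3.64e-06). Neto2 rose, from a mean of 0.625 FPKM in ESCs to 2.32 in EPSCs (1.02, SE 0.13, limma adjusted p = 0.000387). Between hybrid cells and EPSCs, 7 were lower and 3 higher (21.9% and 22.5% of all), none by 2-fold.

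Of 21 scaffold and auxiliary genes of GABA and glycine receptors, 18 were tested, and 14 were lower and 3 higher in hybrid cells than in NSCs, 5 and 1 of them by at least 2-fold. These counts compare with 42.0% and 44.5% of all tested genes, and 23.9% and 23.3% by at least 2-fold. Gphn, which encodes gephyrin, was at 34.4 and 35.2 FPKM in NSCs and 3.49 and 3.32 in hybrid cells (log2 fold change -3.02, SE 0.07, limma adjusted p = 1.46e-08). Lhfpl4, which ties GABA-A receptors to neuroligin, was at 15.2 FPKM in both NSC libraries and 0.0545 and 0.0289 in hybrid cells (-3.96, SE 0.07, adjusted p = 6.17e-09). The gene with the largest rise was Gabarapl2, of the GABARAP family that also acts in autophagy, with means of 43.6 FPKM in NSCs and 118 in hybrid cells (1.40, SE 0.15, adjusted p = 5.37e-05). Between hybrid cells and EPSCs, 3 were higher and 3 lower (22.5% and 21.9% of all), none by 2-fold, and between EPSCs and ESCs 5 were higher and 7 lower (33.7% and 27.3% of all), with Nlgn2, the neuroligin of inhibitory synapses, at 3.55 FPKM against 9.46 (-1.20, SE 0.09, limma adjusted p = 3.86e-05).

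The receptor genes not tested had a highest group mean of at most 0.946 FPKM, with a median of 0.0585 FPKM over the 34 genes. Of these, 12 were above 0.1 FPKM in their highest group, 16 were above 0 but not above 0.1, and 6 were listed at 0 in all libraries.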

How the data were processed

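Poly-A RNA was sequenced from 8 libraries, 2 per group, grouped by their labels. The authors trimmed the reads, aligned them to mm10 with STAR 2.7.9a and deposited FPKM per gene and library from Cuffnorm of Cufflinks 2.2.1. The gene annotation, strand setting and library normalization are not given in the sources used here, and 0 columns belonged to other samples. The receptor genes and the gene lists were chosen with earlier results of these data known.

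Groups were compared with limma 3.58.1 (R 4.3.3, eBayes with trend, two-sided) on log2(FPKM + 1), with the 4 groups in 1 fit (4 residual and 3.25 prior degrees of freedom), over the 13239 genes whose mean reached 1 FPKM in some group. Genes were called at a Benjamini-Hochberg adjusted p under 0.05. The rule of the study's methods (mean FPKM over 3, ratio over 3) was also applied. The methods do not say in which group that mean is taken, and the group with more was used. Limits of 2 for both, which the study also names, were an alternative. An exact permutation test of 2 against 2 libraries cannot go below p = 0.333. The fit was tested on simulated data, but the outcome is not given here and no result rests on it.

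Receptor genes that reached this mean were to be named with the value of every library, and errors and adjusted p given for calls of at least 2-fold. Smaller calls are given here as well where a result turns on them, and lower genes given with values outside that rule were picked after their values were seen. Of each accessory list, at most the 3 largest changes per direction and comparison were named. Depth and fragments were derived in Python 3.11.15 from the steps between FPKM values of 2247 genes with a single transcript, assuming fragments of 200 nucleotides, and fragments are given only for genes whose step agreed within 25% with the longest GENCODE M21 transcript. Upstream sequences are from RefSeq (GRCm38.p6). Alternatives covered the pseudocount, the filter, 2 scalings, a fit of the compared groups alone, a block for the replicate number, the thresholds of the rule, and each library left out. Some genes are counted in the totals but not reported here by name or drawn.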

Additional observations from a re-analysis of the deposited data

How the results depend on the processing

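Of the 72 fold changes of the 18 tested receptor genes in the 4 comparisons, 45 were called, of which 39 kept their call and direction under all 14 alternatives and 6 lost the call under at least 1. All 31 calls of at least 2-fold kept it. Among values that passed the test in either fit, the directions that reversed were those of Grm4 under quantile normalization, at -0.21 in hybrid cells against NSCs and -0.22 in EPSCs against NSCs, and of Gabbr1 in EPSCs against NSCs, at -0.31 with each library scaled to a sum of 1000000. That scaling moved the median of all tested genes to -0.51 in hybrid cells against NSCs and to -0.48 in EPSCs against NSCs. Before scaling, FPKM summed to 415240 and 415412 in the NSC libraries and to between 600674 and 653796 in the others.

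Without a filter on low values, hybrid cells against NSCs gave 8 higher and 23 lower genes (36.1% and 33.2% of all genes), EPSCs against NSCs gave 6 and 21 (35.8% and 32.8%), and EPSCs against ESCs gave 2 and 10 (24.1% and 21.3%), since more genes entered the test. With a pseudocount of 0.1, hybrid cells had 2 higher genes against NSCs, and 4 were higher in EPSCs than in ESCs. With only the groups compared in the fit, 1 was higher and 1 lower in hybrid cells than in EPSCs, and 3 were higher in EPSCs than in ESCs. Scaled to the same sum, 1 was higher in EPSCs than in NSCs and 2 in EPSCs than in ESCs. Leaving out each replicate in turn gave 1 to 2 higher genes in each of the 4 comparisons. With both thresholds of the rule at 2, the rule gave 2 higher genes in hybrid cells than in EPSCs, 1 higher gene in EPSCs than in NSCs and 3 lower genes in EPSCs than in ESCs. Leaving out each replicate, it gave 0 to 1 higher genes in hybrid cells than in EPSCs (1 without hybrid replicate 2) and 1 to 2 lower genes in EPSCs than in ESCs (2 without EPSC replicate 2). The cause was not tested for these changes.

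The groups share replicate numbers, but nothing in the labels ties them to a batch, and the deviations of same-numbered libraries correlated at -0.017 (hybrid cells and NSCs), 0.280 (hybrid cells and EPSCs), 0.069 (EPSCs and NSCs) and 0.057 (EPSCs and ESCs). With the replicate block, 17, 5, 17 and 7 receptor genes were called in these comparisons, against 17, 5, 17 and 6 without it, and 2 in place of 1 were higher in EPSCs than in ESCs. Depth limits the low genes, for which a few fragments decide a value.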
